A study of Mus musculus with 9 samples.

Results

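Neuronal chloride handling was examined at the transcript level through 7 genes, which were selected by name from a list of chloride cotransporters and their regulating kinases. They comprise the cotransporter genes Slc12a5 (KCC2) and Slc12a2 (NKCC1), the WNK kinase genes Wnk1, Wnk2 and Wnk3, and Stk39 (SPAK) and Oxsr1 (OSR1). Each of the 7 occurs among the 53465 genes of the count table, and all 7 are among the 18501 genes with enough counts to be tested. Whole brains of male C57BL/6 mice, 7 weeks old at the start, were sequenced as 1 library per mouse. The 3 control mice (CON) were given saline. The 3 mice of the diabetic neuropathic pain group (DNP) ate food with 60% fat over 4 weeks, then received streptozotocin at 50 mg/kg daily for 7 days, and later saline. The 3 mice of the baclofen group (BAC) had the same diet and streptozotocin and then baclofen, a GABA-B receptor agonist, at 8 mg/kg daily for 7 days. High-fat diet and streptozotocin were always given together, so their contributions cannot be told apart. The authors enrolled only those treated mice that had lasting high blood glucose and lowered pain thresholds. This selection is likewise shared by DNP and BAC and cannot be told apart from diet and streptozotocin.

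KCC2 exports chloride from mature neurons, and NKCC1 imports it. The balance of both sets the neuronal chloride gradient, on which hyperpolarising inhibition through GABA-A receptors depends. WNK kinases sense chloride and activate SPAK and OSR1, and these in turn phosphorylate both cotransporters, which stimulates NKCC1 and inhibits KCC2. KCC2 is largely restricted to neurons, whereas NKCC1 is also made by oligodendrocyte-lineage cells, endothelial cells and choroid plexus epithelium.

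The libraries held 13107382 to 16008129 counts on genes. Depth was therefore not limiting for these genes, as the lowest member count in a library was 80 (Wnk3, exact 95% Poisson interval 63.4 to 99.6, counting error only). The tissue content of the libraries differed within groups. The summed level of 7 markers of caudal hindbrain and spinal cord was 323 CPM (counts scaled to a common library size with TMM factors) in DNP replicate 1, 427 CPM in BAC replicate 1 and 352 CPM in BAC replicate 3, against 0.27 to 28.4 CPM in the other 6 libraries, where 5 or 6 of the 7 markers in each CON library, Hoxa5 and Hoxb6 included, were at 0. Hoxa5 and Hoxb6 were likewise at 0 in DNP replicates 2 and 3 and BAC replicate 2. Forebrain markers were lowest in the same 3 libraries (94.7 to 135 CPM, against 244 to 976 CPM), so the label whole brain covers tissue of different make-up. Cerebellar granule cell markers ranged from 59.7 to 4692 CPM and were highest in CON replicate 2. The summed level of 8 oligodendrocyte markers was 2232 to 3113 CPM in CON, 3733 to 9335 CPM in DNP and 2995 to 9558 CPM in BAC. All 8 were higher in DNP than in CON at an unadjusted p under 0.05 (edgeR's quasi-likelihood test), and 7 of them without overlap of the groups, where 5.71% and 9.59% of all tested genes were higher in these ways. Mitochondrial genes took 4.34 to 5.36% of the counts in CON, 6.68 to 7.01% in DNP and 5.94 to 7.23% in BAC, so that CON lay below both other groups without overlap, and the part of this difference in the results below was not tested. In bulk tissue, fewer cells of a type and less RNA per cell cannot be told apart.

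Slc12a5 (ENSMUSG00000017740) is on the plus strand of chromosome 2 of GRCm38, from 164960802 to 164999731, and has 10 annotated transcripts, of which 4 are protein-coding. RefSeq gives the gene a pair of start sites 7142 bases apart, whose transcripts are pooled in a count per gene. Both windows around these starts are shown because Slc12a5 had the highest level of the 7 genes, and that of Wnk2 is shown because Wnk2 was also lower in DNP. Each window runs from 250 bases before to 50 bases after the start, 5′ to 3′ on the strand of the gene (GRCm38.p6), and capitals mark the E-box CACGTG, the motif of the factors USF1 and USF2. The windows are chr2:164960596-164960895 and chr2:164967738-164968037 on the plus strand for Slc12a5 and chr13:49148279-49148578 on the minus strand for Wnk2.
Slc12a5, upstream start: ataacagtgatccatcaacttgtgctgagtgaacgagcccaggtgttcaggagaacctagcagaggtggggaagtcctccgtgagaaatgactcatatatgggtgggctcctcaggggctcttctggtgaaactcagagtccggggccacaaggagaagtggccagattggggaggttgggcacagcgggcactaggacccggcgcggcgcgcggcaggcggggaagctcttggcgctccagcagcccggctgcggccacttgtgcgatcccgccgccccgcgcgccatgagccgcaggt
Slc12a5, downstream start: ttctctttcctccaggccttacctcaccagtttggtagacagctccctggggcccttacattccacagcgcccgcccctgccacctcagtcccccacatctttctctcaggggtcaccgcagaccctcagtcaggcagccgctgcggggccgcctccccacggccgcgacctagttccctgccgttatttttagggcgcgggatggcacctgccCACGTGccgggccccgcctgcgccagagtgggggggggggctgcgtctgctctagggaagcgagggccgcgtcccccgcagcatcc
Wnk2: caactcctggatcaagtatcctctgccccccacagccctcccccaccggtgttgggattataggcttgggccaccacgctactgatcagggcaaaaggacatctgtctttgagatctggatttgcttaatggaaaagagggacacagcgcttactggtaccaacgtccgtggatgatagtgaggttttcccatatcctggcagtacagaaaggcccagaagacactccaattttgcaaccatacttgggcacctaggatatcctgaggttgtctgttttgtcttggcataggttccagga

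The E-box CACGTG, which reads the same on both strands, was found 36 bases before the downstream start of Slc12a5 and in no other member window searched. Of the 32851 RefSeq promoter windows, 7.15% hold it. On both strands, the windows of Slc12a5, Wnk1, Wnk2, Wnk3, Stk39 and Oxsr1 were also searched for GCGNGGGCG (EGR family, in 5.55% of all windows), TTCAGCACC (part of the site of the repressor REST, 0.371%) and GGGCGG (SP1, 35.7%). The last motif searched for was the TATA box, spelled TATAAA, which 13.6% of all windows hold. A match to GCGNGGGCG shares its last letters with GGGCGG where a G follows. GGGCGG was found in both Slc12a5 windows and in those of Wnk1, Stk39 and Oxsr1, and TATAAA in that of Wnk3. None of these 5 motifs was present in the Wnk2 window, and neither GCGNGGGCG nor TTCAGCACC in any of the windows searched. The Wnk2 window, from base 49148279, lies wholly upstream of the annotated gene, whose 5′ end is at 49148014. The start of that gene model was therefore not searched. A match describes letters in a window and shows no binding. The window of Slc12a2 was not analysed here.

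Levels were first compared between the genes in CON, per length. As CPM per kilobase of the longest annotated transcript, the order was Slc12a5 (89.1 ± 6.06, SD, n = 3 mice), Wnk2 (36.9 ± 2.81), Slc12a2 (19.8 ± 7.03), Wnk1 (19.5 ± 2.00), Stk39 (18.4 ± 2.76), Oxsr1 (17.5 ± 0.618) and Wnk3 (2.41 ± 0.524). The 4 genes from Slc12a2 to Oxsr1 lay close together, and each differed from its neighbour in this order by less than the larger SD of the pair. The FPKM values of the authors (fragments scaled by gene length and library total) gave 42.2 ± 1.41 for Slc12a5, 20.2 ± 2.27 for Wnk2, 19.4 ± 7.61 for Slc12a2, 12.3 ± 0.715 for Oxsr1, 8.08 ± 0.987 for Stk39, 5.30 ± 0.705 for Wnk1 and 1.25 ± 0.243 for Wnk3 (SD, n = 3 each). Wnk1 moved down this order because the FPKM values divide its counts by 40754 bases, although its longest annotated transcript has 11330 bases and its annotated exons together cover 22825. The length behind the FPKM values exceeded the annotated exons together for 6 of the 7 genes, all but Slc12a2, so levels between genes on the FPKM scale carry this difference. Slc12a5 and Wnk3 were the highest and the lowest member on both scales.

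**Figure D1:**
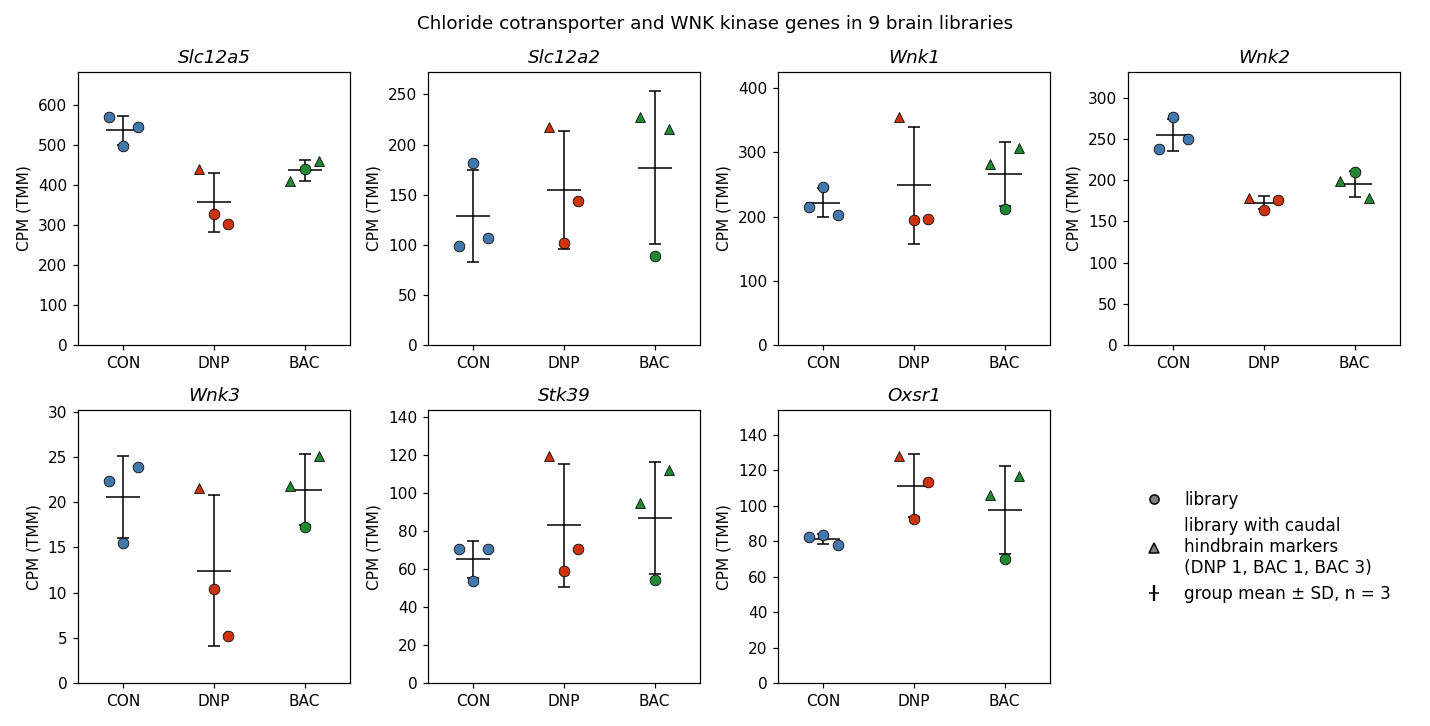
Level of each gene in the 9 libraries. The y axis gives CPM with TMM scaling from 0, points are libraries, triangles are the 3 libraries with caudal hindbrain markers (DNP 1, BAC 1, BAC 3), and bars are the group mean ± SD (n = 3). Slc12a5 and Wnk2 are lower in each DNP library than in each CON library, while Slc12a2, Wnk1 and Stk39 are highest in the 3 triangle libraries.

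The first comparison, DNP versus CON, asks how these genes differ in the diabetic pain model. Slc12a5 and Wnk2, a WNK kinase gene expressed in brain, had lower values in DNP than in CON without overlap of the libraries, and Oxsr1 had higher ones, likewise without overlap. These were 2 of 7 members lower and 1 of 7 higher, where 8.63% of all tested genes were lower and 9.59% higher in this way (18.2% together). At an unadjusted p under 0.05, 2 of 7 members differed, both lower, where 11.2% of all genes did (5.46% lower). After Benjamini-Hochberg adjustment, edgeR called none of the 7 and 0 of the 18501 genes (0%) at 0.05, with 2067 genes below this level unadjusted. DESeq2 called 1 of the 7, Wnk2, and 342 genes in all (1.85%).

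Slc12a5, the chloride exporter of mature neurons, was at 569, 498 and 545 CPM in the CON libraries, at 441, 328 and 302 CPM in the DNP libraries and at 409, 442 and 459 CPM in the BAC libraries. CON was above both other groups without overlap, and DNP replicates 2 and 3 were the lowest of the 9 libraries. In DNP versus CON the log2 fold change was -0.59 (standard error 0.17, 95% interval -0.98 to -0.20), 1.51-fold lower, with an adjusted p of 0.328 in edgeR and 0.0605 in DESeq2. The difference was larger without the 3 libraries with hindbrain markers (log2 fold change -0.78), among them DNP replicate 1, the highest DNP library. With cerebellar and hindbrain marker scores as covariates the log2 fold change was -0.84 (adjusted p 0.36 in edgeR). Without DNP replicate 3, the lowest DNP library, it was -0.48 (adjusted p 0.646 in edgeR).

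Wnk2 (ENSMUSG00000037989, chromosome 13 from 49036303 to 49148014, minus strand) was at 238, 276 and 250 CPM in CON, at 178, 164 and 176 CPM in DNP and at 199, 209 and 178 CPM in BAC. Its DNP libraries lay close together (coefficient of variation 4.42%) and below all CON libraries. The log2 fold change in DNP versus CON was -0.56 (standard error 0.13, 95% interval -0.86 to -0.27), 1.48-fold lower, with an adjusted p of 0.294 in edgeR and 0.00106 in DESeq2. It was -0.60 without the 3 libraries with hindbrain markers and -0.34 with cerebellar and hindbrain marker scores as covariates, where the unadjusted p in edgeR was 0.0913.

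Wnk3 (ENSMUSG00000041245, chromosome X from 151198078 to 151320152, plus strand), a WNK kinase gene of low level in these libraries, was at 22.4, 15.5 and 23.9 CPM in CON, at 21.6, 10.4 and 5.25 CPM in DNP and at 21.8, 17.3 and 25.1 CPM in BAC. DNP replicates 2 and 3 had the lowest values of the 9 libraries, and DNP replicate 1 lay within CON. The log2 fold change was -0.73 (standard error 0.45, adjusted p 0.574 in edgeR), and it was -1.39 without DNP replicate 1 and -0.36 without DNP replicate 3. The libraries were not strand-specific, and 523 exonic bases of Wnk3 overlap A230072E10Rik, an antisense gene with 11 to 47 counts per library, from which reads in the overlap cannot be told apart.

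Among the kinases that act directly on the cotransporters, Oxsr1 (ENSMUSG00000036737, chromosome 9 from 119238432 to 119322427, minus strand) was at 82.3, 83.7 and 78.2 CPM in CON, at 128, 92.6 and 113 CPM in DNP and at 106, 70.0 and 117 CPM in BAC. CON was narrow (coefficient of variation 3.53%), and all DNP libraries were above it. The log2 fold change in DNP versus CON was 0.45 (standard error 0.21, 95% interval -0.02 to 0.92, adjusted p 0.459 in edgeR). With the oligodendrocyte marker score as a covariate, a setting chosen after seeing the data, it was -0.04. These markers summed to 2232 to 3113 CPM in CON and 3733 to 9335 CPM in DNP. As they did not overlap, that fit can separate the score from these groups only in part.

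Stk39 (ENSMUSG00000027030, chromosome 2 from 68210445 to 68472268, minus strand), which encodes the close relative SPAK, was at 70.7, 53.7 and 70.7 CPM in CON, at 120, 58.8 and 70.5 CPM in DNP and at 94.4, 54.3 and 112 CPM in BAC. Its 3 highest values were in the 3 libraries with hindbrain markers, and the other 6 libraries of all groups lay between 53.7 and 70.7 CPM. The log2 fold change in DNP versus CON was 0.35 (standard error 0.33, adjusted p 0.733 in edgeR) and -0.02 without those 3 libraries.

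Wnk1 (ENSMUSG00000045962, chromosome 6 from 119923969 to 120038672, minus strand), the most widely expressed WNK kinase gene, was at 216, 246 and 202 CPM in CON, at 354, 195 and 197 CPM in DNP and at 281, 212 and 307 CPM in BAC. It too was highest in the 3 libraries with hindbrain markers, and the groups overlapped. In DNP versus CON the log2 fold change was 0.17 (standard error 0.26, adjusted p 0.858 in edgeR), and it was -0.19 without these 3 libraries.

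Slc12a2 (ENSMUSG00000024597, chromosome 18 from 57878678 to 57946821, plus strand), the chloride importer, was at 98.6, 182 and 107 CPM in CON, at 218, 102 and 143 CPM in DNP and at 227, 88.9 and 215 CPM in BAC. The 3 libraries with hindbrain markers were highest, followed by CON replicate 2, the library with the most cerebellar marker RNA. The log2 fold change in DNP versus CON was 0.26 (standard error 0.42, 95% interval -0.70 to 1.22, adjusted p 0.865 in edgeR), an interval that holds 0. It was -0.09 without the 3 libraries and -0.75 with the oligodendrocyte score as a covariate, a setting chosen after seeing the data.

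**Figure D2:**
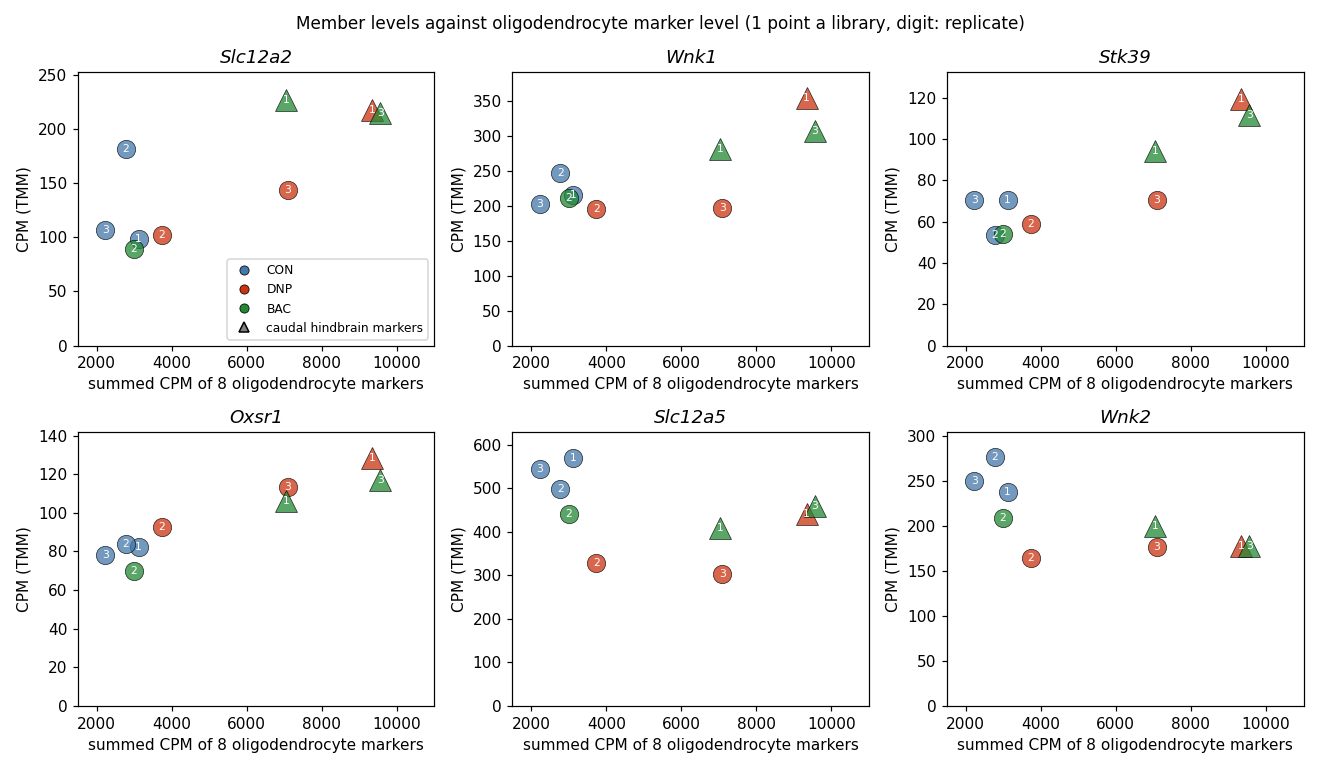
Level of 6 genes (y axis, CPM with TMM scaling) against the summed CPM of 8 oligodendrocyte markers (x axis) in the 9 libraries, coloured by group, with the replicate number in each point and triangles for the 3 libraries with caudal hindbrain markers. Oxsr1 is highest in DNP 1, BAC 3, DNP 3 and BAC 1, which have 7039 CPM of these markers or more, whereas Slc12a5 is lower in DNP 2 (3733 CPM of markers) than in BAC 2 (2995 CPM).

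Oxsr1 was highest where oligodendrocyte markers were highest, whereas Wnk1, Stk39 and Slc12a2 followed these markers only in part. The 4 libraries with the highest summed oligodendrocyte markers, BAC replicate 3 (9558 CPM), DNP replicate 1 (9335 CPM), DNP replicate 3 (7092 CPM) and BAC replicate 1 (7039 CPM), were also the 4 with the highest Oxsr1. For Wnk1 and Stk39 the 3 highest libraries were among these 4, and DNP replicate 3, at 197 and 70.5 CPM, was not above CON. Slc12a2 was highest in the same 3 but reached 182 CPM in CON replicate 2, at 2775 CPM of oligodendrocyte markers. The summed level of 7 choroid plexus markers was 279 to 520 CPM in CON, 318, 27.0 and 1390 CPM in DNP and 1263, 26.7 and 28.9 CPM in BAC, and its part in the level of Slc12a2 was not tested. The summed level of 7 pan-neuronal markers was 4769 to 5744 CPM in CON, 5144 to 6952 CPM in DNP and 4763 to 6126 CPM in BAC. Among these markers the direction was mixed, with a log2 fold change in DNP versus CON below 0 for Rbfox3 (-0.59) and Stmn2 (-0.27) and above 0 for the other 5, and with none at an unadjusted p under 0.05 in edgeR. Rbfox3, a marker of mature neurons, was at 174, 281 and 310 CPM in DNP against 341 to 468 CPM in CON, without overlap. Of the 7 markers Rbfox3 was the 1 lower in this way, while Tubb3 (log2 fold change 0.56) and Eno2 (0.25) were higher without overlap. The shares over all tested genes were 8.63% lower and 9.59% higher. The part of neuronal content in the lower Slc12a5 and Wnk2 was not tested. The part of oligodendrocyte and regional content in the differences between groups was not tested beyond the fits with and without these libraries and scores.

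The levels of NKCC1 and KCC2 transcripts were also set against each other as the ratio of Slc12a2 to Slc12a5 FPKM, a description of each library. The ratio was 0.329, 0.694 and 0.372 in CON, 0.939, 0.593 and 0.902 in DNP and 1.05, 0.383 and 0.890 in BAC, and the group means (± SD, n = 3) were 0.465 ± 0.199, 0.811 ± 0.190 and 0.776 ± 0.350. DNP was above CON replicates 1 and 3 in every library, whereas CON replicate 2 exceeded DNP replicate 2, and BAC replicate 2 lay within the CON range. On the log2 scale DNP was 0.85 above CON and BAC 0.69 above CON. The size of the ratio depends on the lengths used. Per longest annotated transcript the group means were 0.226, 0.394 and 0.377, since the FPKM values divide Slc12a5 counts by 12401 bases, against 6028 in its longest annotated transcript, and Slc12a2 counts by 6520 bases, the length of its longest annotated transcript. Among the 6 libraries without hindbrain markers, the 2 of DNP were at 0.593 and 0.902 and that of BAC at 0.383. The ratio was not refitted with the marker scores of tissue content. With the oligodendrocyte score as a covariate, chosen after seeing the data, both genes had similar log2 fold changes in DNP versus CON. These were -0.75 for Slc12a2 and -0.71 for Slc12a5. The part of regional and glial content in the ratio was not tested.

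**Figure D3:**
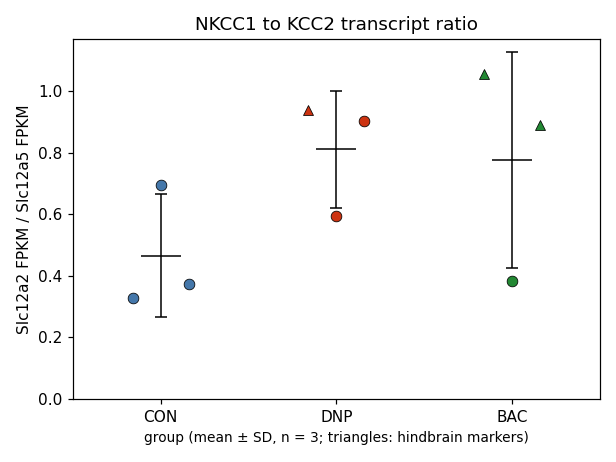
Ratio of Slc12a2 to Slc12a5 FPKM (y axis, from 0) in each library by group, with the group mean ± SD (n = 3) and triangles for the libraries with caudal hindbrain markers. The ratio spans 0.329 to 0.694 in CON and 0.593 to 0.939 in DNP, and in BAC 1 library is at 0.383 and the others are at 0.890 and 1.05.

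The second comparison, BAC versus DNP, asks how baclofen treatment changed the same genes in diabetic mice. It shares the DNP libraries with the first comparison. No member differed at an unadjusted p under 0.05 (background 2.37% of tested genes, 1.37% higher and 1% lower), and none of the 18501 genes passed the adjusted threshold in edgeR (438 at an unadjusted p under 0.05), while DESeq2 called 7 genes (0.0378%) and no member. Wnk2 was the 1 member of 7 without overlap of the groups, higher in BAC, against 3.38% of all genes higher and 3.41% lower (6.79% together). Its lowest BAC value and highest DNP value were nearly equal (177.79 and 177.73 CPM), and the log2 fold change was 0.18 (standard error 0.13). For Slc12a5 it was 0.29 (standard error 0.17, 95% interval -0.10 to 0.68), and DNP replicate 1, at 441 CPM, lay within the BAC range. Wnk3 had the largest value, 0.78 (standard error 0.45), and 0.42 without DNP replicate 3 and 1.45 without DNP replicate 1. Slc12a2, Wnk1, Stk39 and Oxsr1 had log2 fold changes of 0.20, 0.10, 0.07 and -0.19, each smaller than its standard error, and the adjusted p was 0.998 for all 7 members (edgeR).

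In BAC versus CON, Slc12a5 and Wnk2 had lower values in BAC without overlap, 2 of 7 members against 6.23% of all tested genes lower and 7.21% higher (13.4% together). For Wnk2 the log2 fold change was -0.38 (standard error 0.13, 95% interval -0.68 to -0.09) with an unadjusted p of 0.017 and an adjusted p of 0.628 in edgeR, and for Slc12a5 it was -0.30 (standard error 0.17, adjusted p 0.678). Wnk2 was the 1 of 7 members at an unadjusted p under 0.05, where 7.76% of all genes were at this level (3.3% lower, 4.46% higher). No gene passed the adjusted threshold in edgeR (1436 at an unadjusted p under 0.05), and DESeq2 called 100 genes (0.541%) and no member. Slc12a2, Stk39, Wnk1, Oxsr1 and Wnk3 had log2 fold changes of 0.46, 0.42, 0.27, 0.27 and 0.06, with overlapping groups.

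**Figure D4:**
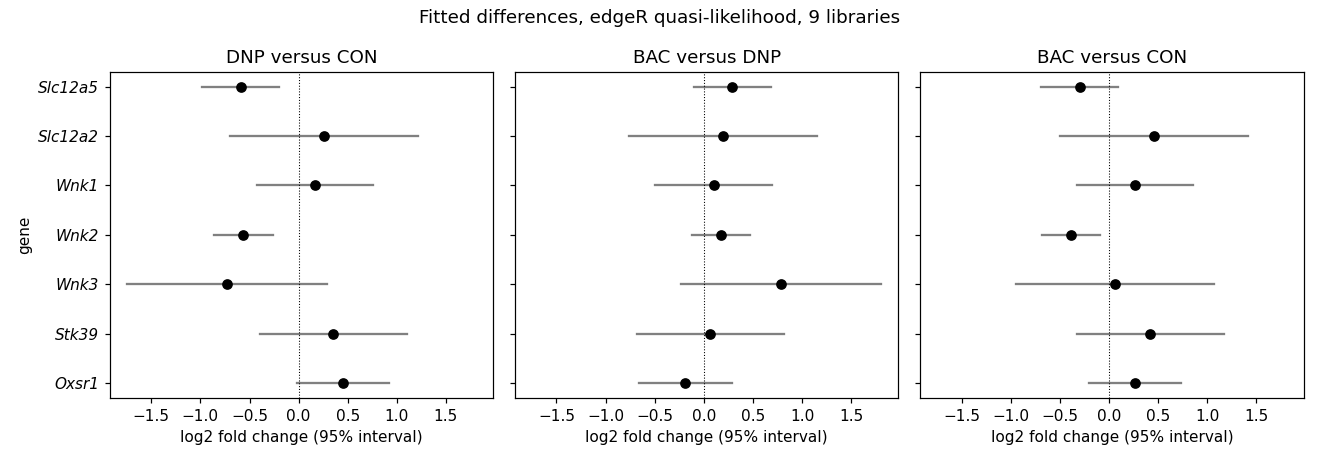
Log2 fold change of each gene (x axis) with its 95% interval (grey lines) in the 3 comparisons, from edgeR's quasi-likelihood fit to all 9 libraries. In DNP versus CON the intervals of Slc12a5 (-0.98 to -0.20) and Wnk2 (-0.86 to -0.27) lie below 0, and in BAC versus DNP all 7 intervals include 0.

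Across the 9 libraries the 7 genes formed no single pattern. Pearson's r of log2 CPM, given as a description over 9 libraries that also share tissue differences, was 0.84 for Slc12a2 with Wnk1 (Spearman's rho 0.68), 0.82 for Wnk1 with Stk39 (rho 0.65) and 0.82 for Stk39 with Oxsr1 (rho 0.65). Slc12a5 varied with Wnk3 (r = 0.82, rho 0.67) and Wnk2 (r = 0.76, rho 0.83), and not with Slc12a2 (r = -0.07, rho -0.27). Among 11111 genes with a mean of at least 10 CPM, those most like Slc12a5 were Apc2 (r = 0.98), Adgrl3 (0.97), Kpna6 (0.97), Epg5 (0.96) and Armcx4 (0.95). Without the 2 libraries farthest from the median of Slc12a5, these r were 0.84 to 0.94. Those most like Slc12a2 were Picalm, Phactr4, Fam234a, Sept4 and Rcbtb1, each with r = 0.98 over the 9 libraries and 0.97 to 0.99 without the 2 libraries farthest from its median.

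Other genes of chloride transport were read from 4 lists. Of 6 other Slc12 cotransporter genes, 5 were tested (Slc12a1, with 1 to 12 counts, was not). None of them differed in DNP versus CON at an unadjusted p under 0.05 in edgeR, where 11.2% of all genes did. Slc12a9 had 49.6 ± 2.87 CPM in CON and 52.8 ± 6.52 in DNP, and Slc12a4 (KCC1) 37.3 ± 12.9 and 32.5 ± 2.29 (SD, n = 3 mice each). Slc12a7 (KCC4) and Slc12a8 were at 4.94 ± 2.04 and 3.21 ± 1.85 CPM in CON. The median log2 fold change of the 5 genes was -0.20, against 0.01 over all tested genes.

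Of 16 partners and adaptors of the WNK, SPAK and OSR1 kinases, 1 was higher and 1 lower in DNP at an unadjusted p under 0.05 (5.71% and 5.46% of all genes), with a median log2 fold change of 0.17. Sgk1, a steroid-inducible kinase that acts on ion transport, was at 64.5, 57.0 and 91.5 CPM in CON, at 262, 147 and 155 CPM in DNP and at 70.0, 91.8 and 147 CPM in BAC. The DNP libraries were above all others, though BAC replicate 3 was close to DNP replicate 2. The log2 fold change in DNP versus CON was 1.41 (standard error 0.34, adjusted p 0.294 in edgeR and 0.0171 in DESeq2). In BAC versus DNP it was -0.87 (standard error 0.34, unadjusted p 0.031 in edgeR), with an adjusted p of 0.998 in edgeR and 0.999 in DESeq2. Tsc22d2 and Tsc22d1, which encode partners of WNK kinases, had log2 fold changes of -0.41 and -0.49 in DNP versus CON, both without overlap, and Tsc22d4 one of 0.49. Of the 16 genes, 2 were lower and 1 higher without overlap, against 8.63% and 9.59% of all tested genes.

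Of 13 partners and transcriptional regulators of KCC2, 10 had a log2 fold change below 0 in DNP versus CON, as had 8992 of all 18501 genes. Of the 10, only Gabbr2 was lower at an unadjusted p under 0.05 (5.46% of all genes), and the list had a median log2 fold change of -0.20. Gabbr2 encodes the GABA-B receptor subunit that couples to G proteins and was at 457, 373 and 448 CPM in CON, at 252, 218 and 293 CPM in DNP and at 242 to 267 CPM in BAC. Both diabetic groups were below CON without overlap, with log2 fold changes of -0.75 (adjusted p 0.294 in edgeR, 0.00103 in DESeq2) in DNP and -0.75 in BAC (adjusted p 0.628 in edgeR, 0.00258 in DESeq2). Of the 13 genes, 2 were lower without overlap in DNP versus CON, against 8.63% of all tested genes. In BAC versus CON 2 of the 13 were, against 6.23%. Neto2, which encodes an auxiliary subunit that binds KCC2, had 62.6 ± 18.3 CPM (SD, n = 3) for CON, 45.5 ± 12.1 for DNP and 64.2 ± 9.13 for BAC. Epb41l1 and Bdnf had log2 fold changes of -0.29 and -0.42 in DNP versus CON, with overlapping groups.

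Of 15 other genes of chloride and bicarbonate transport, 1 was higher and 3 were lower in DNP at an unadjusted p under 0.05 (5.71% and 5.46% of all genes), with a median log2 fold change of -0.11. Car2, a carbonic anhydrase gene of oligodendrocytes, was at 127 to 149 CPM in CON, at 329, 176 and 247 CPM in DNP and at 274, 151 and 335 CPM in BAC, the order of the libraries being close to that of the oligodendrocyte markers. Its log2 fold change was 0.86 (standard error 0.31, adjusted p 0.384 in edgeR). Car10, a carbonic anhydrase-related gene, was at 115 to 142 CPM in CON and at 78.7, 70.6 and 93.2 CPM in DNP (log2 fold change -0.62, adjusted p 0.327 in edgeR). The neuronal sodium bicarbonate transporter genes Slc4a10 and Slc4a8 had log2 fold changes of -0.58 and -0.64, both with overlapping groups.

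The same 4 lists, with 5, 16, 13 and 15 tested genes, were also read in the comparisons with BAC. In BAC versus DNP, Sgk1 and Clcn2, which encodes a chloride channel, were lower at an unadjusted p under 0.05 (1% of all genes lower), with a log2 fold change of -0.47 for Clcn2 (standard error 0.16, adjusted p 0.998 in edgeR). In BAC versus CON, 2 genes were higher at this level (4.46% of all genes), Tsc22d4 (0.53) and Car2 (0.88), and 4 were lower (3.3% of all genes), Gabbr2 (-0.75), Bdnf (-0.77), Car10 (-0.52) and Clcn2 (-0.47), with adjusted p of 0.628 or 0.638 in edgeR. DESeq2 called Gabbr2 of these.

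**Figure D5:**
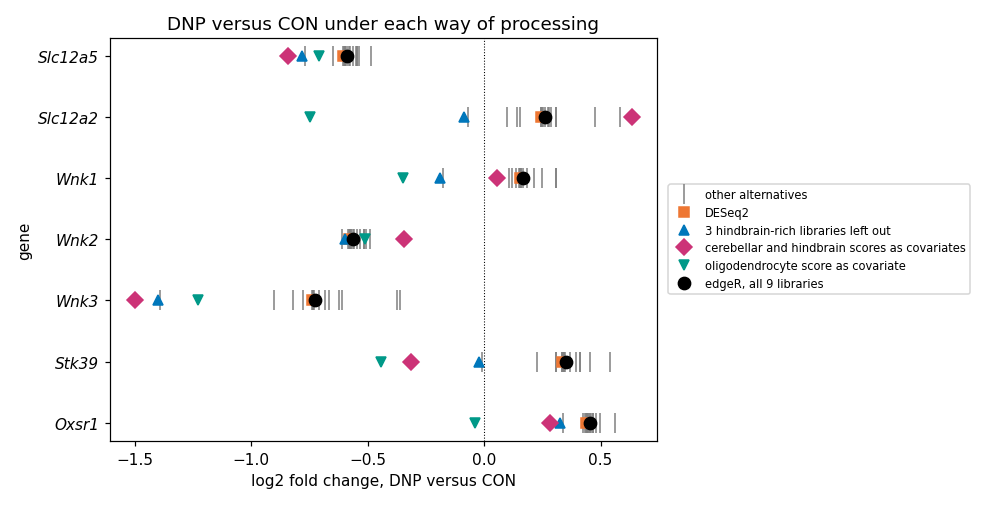
Log2 fold change in DNP versus CON (x axis) of each gene from the edgeR fit to all 9 libraries (black) and from 20 alternatives, 4 of which have their own symbols. Slc12a5, Wnk2 and Wnk3 stay below 0 in all of them, while Slc12a2, Wnk1, Stk39 and Oxsr1 lie on both sides of 0.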

How the data were processed

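Whole-brain poly(A) RNA of 9 mice was sequenced in paired-end mode without strand information, and groups were taken from the sample titles. The authors checked reads with FastQC v0.11.9, filtered them with fastp, aligned them to GRCm38 with HISAT2 v2.1.0 and quantified genes with StringTie v1.3.3b. How reads mapping to several genes were handled is not given in the sources used here. Deposited were a table of raw counts and a table of FPKM. Dividing a count by its library total and by 1 fixed gene length returned the FPKM (lengths differed between libraries by a factor of at most 1.0000181 over 12216 genes), so the deposited FPKM carry no TMM factor.

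Counts were fitted in R 4.3.3 with edgeR 4.0.16 (filterByExpr with a minimum count of 10, TMM, quasi-likelihood test, all 9 libraries, group as factor), with Benjamini-Hochberg adjustment over 18501 genes and a threshold of 0.05. Standard errors were derived from the log2 fold change and the F statistic. The biological coefficient of variation was 36.5%. DESeq2 1.42.0 and limma 3.58.1 served for alternatives. The fit was also run on simulated counts with changes larger than those of the members, so that run cannot show whether differences of their size are detected. Libraries of the same group differed far beyond counting error (chi-square per degree of freedom 15.7 to 122). The labels give a group and a replicate number. The authors describe 3 biological replicates in each group, which were read here as separate mice.

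Members and lists were chosen with earlier results of these data known, so no p adjusted over a list is given. Named genes are the 7 members, up to 4 genes per list with the smallest p in DNP versus CON, and the 5 genes most correlated with Slc12a5 and with Slc12a2. Rbfox3, Stmn2, A230072E10Rik, Slc12a1, Clcn2 and marker genes were named after their values were seen. Gene models are from GENCODE M21 (GRCm38), promoters from RefSeq (GRCm38.p6).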

Additional observations from a re-analysis of the deposited data

How the results depend on the processing

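The 7 members had 20 alternatives in each comparison. Slc12a5 and Wnk2 kept their direction in all of them in all 3 comparisons, and Wnk3 in the comparisons with DNP. Their log2 fold changes in DNP versus CON ranged from -0.84 to -0.48, from -0.61 to -0.34 and from -1.50 to -0.36, and with each library left out from -0.77 to -0.48, from -0.61 to -0.51 and from -1.39 to -0.36. The adjusted p of Wnk2 ranged from 0.00106 to 0.628 and passed 0.05 under DESeq2 alone. That of Slc12a5 ranged from 0.0605 to 0.646. Counts of genes past the threshold were 0 in edgeR and 342 for DNP against CON, 7 for BAC against DNP and 100 for BAC against CON under DESeq2. They ranged from 0 to 1, 0 to 0 and 0 to 1 with each library left out, and were 0 in the other alternatives. Replicate numbers were not taken as pairs. Deviations of same-numbered libraries correlated from -0.58 to 0.56. Differently numbered libraries were not compared, so these values cannot show whether a number stands for a shared batch. With a replicate block, 0 genes passed the threshold in each comparison, with 1688, 382 and 1203 at an unadjusted p under 0.05, and no member changed its call. The cause of the reversals below was not tested.

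With the 3 libraries with hindbrain markers left out, which leaves 1 BAC library that is assumed to vary like the other groups, the log2 fold changes that turned sign in DNP versus CON were those of Slc12a2 (-0.086), Wnk1 (-0.19) and Stk39 (-0.021). In BAC versus DNP they were those of Slc12a2 (-0.46) and Stk39 (-0.25), and in BAC versus CON those of Slc12a2 (-0.55), Wnk1 (-0.076), Wnk3 (-0.26), Stk39 (-0.27) and Oxsr1 (-0.23). With cerebellar and hindbrain scores as covariates, Stk39 turned in DNP versus CON (-0.31), Slc12a2 (-0.41), Wnk1 (-0.16) and Stk39 (-0.34) in BAC versus DNP, and Wnk1 (-0.11), Wnk3 (-0.98), Stk39 (-0.65) and Oxsr1 (-0.17) in BAC versus CON. With the oligodendrocyte score as a covariate, a setting chosen after seeing the data, Slc12a2 (-0.75), Wnk1 (-0.35), Stk39 (-0.44) and Oxsr1 (-0.038) turned in DNP versus CON, and Slc12a2 (-0.49), Wnk1 (-0.18), Wnk3 (-0.38), Stk39 (-0.31) and Oxsr1 (-0.20) in BAC versus CON. Lengths of the longest annotated transcript, also chosen after seeing the data, lowered the mean ratio of Slc12a2 to Slc12a5 to 0.226 in CON, 0.394 in DNP and 0.377 in BAC.

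With each library left out in DNP versus CON, the range was -0.071 to 0.59 for Slc12a2, -0.18 to 0.31 for Wnk1, -0.0087 to 0.54 for Stk39 and 0.34 to 0.56 for Oxsr1, with the lowest of Slc12a2, Wnk1 and Stk39 without DNP replicate 1. In BAC versus DNP it was -0.025 to 0.53 for Slc12a2, -0.045 to 0.44 for Wnk1, -0.15 to 0.43 for Stk39 and -0.33 to 0.0030 for Oxsr1, and in BAC versus CON -0.11 to 0.19 for Wnk3. The log2 ratio of Slc12a2 to Slc12a5 differed by 0.65 to 1.18 in DNP versus CON, by -0.45 to 0.29 in BAC versus DNP and by 0.41 to 1.14 in BAC versus CON. The marker scores of tissue content, under which Slc12a2 turned sign, were not applied to the ratio, so these ranges do not cover tissue content.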
